A study of Mus musculus with 9 samples.

Results

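Solute carriers are membrane proteins that move amino acids, sugars, nucleotides, metals, ions, vitamins and lipids across the plasma membrane and the membranes of organelles, and mouse genes for them carry the prefix Slc (Slco for the organic anion transporting polypeptides). They were measured here in the dendritic cells (DCs) of the mouse spleen, namely CD8pos cDC1, CD8neg cDC2 and plasmacytoid DC (pDC). The members described are the genes whose name is Slc, a number, a letter and a further number or suffix, or Slco and a number, and whose read counts summed over the 9 libraries reached 300. Of 387 Slc genes listed among 39179 genes, 88 had no count in any library, 109 were counted but summed to fewer than 300, and 190 were members, 185 of them carriers and 5 accessory genes or non-coding copies. Members were chosen by their measured read counts, summed over all libraries, so no comparison between subsets entered the choice, although 23 members reached 300 only with the counts of their highest subset. Just inside the limit lay Slc45a3 (308 counts) and Slc1a4 (323), and just outside it Slc16a14 (270) and Slc25a43 (267).

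Bulk RNA was sequenced from DCs of unstimulated C57BL/6J mice, with 3 libraries per subset, each from a pool of 15 to 17 mice, so that differences between single animals were averaged within a library. Same-numbered libraries of the 3 subsets share a date code in the labels. The paper describes spleen preparations depleted of lineage-positive cells with antibodies before sorting. It defines the sorted subsets as CD11c hi CD317 lo CD8+ CD11b- cells (cDC1), CD11c hi CD317 lo CD8- CD11b+ cells (cDC2) and CD11c int CD317 hi CD11b- cells (pDC). Total counts ran from 15806597 to 32453789 per library, and members took 0.790 to 0.888% of them in cDC1, 0.873 to 0.938% in cDC2 and 1.06 to 1.13% in pDC. Defining genes separated the labelled subsets: Xcr1, the cDC1 chemokine receptor, stood at 929 to 947 CPM (read counts scaled to the effective library size) in cDC1 and at most 64.9 elsewhere, Clec4a4 of cDC2 at 147 to 187 against at most 5.86, and Siglech of pDC at 4328 to 5108 against at most 33.9. Not every gene listed for a subset was highest there: Irf8, listed for cDC1, stood at 4030.2 to 4551 CPM in pDC against 2421 to 2809.8 in cDC1, and Cd4, listed for cDC2, at 1310.3 to 1450.02 in pDC against 385 to 422 in cDC2, so that the 5 genes listed for cDC2 summed to 1892 to 2053 CPM in pDC and 1772 to 1901 in cDC2. Levels below are CPM after TMM scaling, in the order of replicates 1, 2 and 3, and n is 3 libraries per subset throughout. A difference was called at an adjusted p below 0.05 in edgeR's quasi-likelihood test, adjusted over all 13819 genes tested, and is given as a log2 fold change ± its standard error. In bulk RNA, a carrier made by fewer cells of a sorted subset cannot be told apart from less of it in each cell.

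In DCs carriers do more than feed the cell. Carriers of the endolysosome, the compartment in which Toll-like receptors (TLR) meet nucleic acids, move peptides, histidine, nucleosides and protons out of it. Of these, Slc15a4 is known to be needed for nucleic acid-sensing TLR responses of pDC. Natural resistance of phagocytes to intracellular microbes depends on a working Slc11a1 carrier, which takes iron out of the phagosome. Some folate and related carriers (Slc19a1, Slc46a2, Slc46a3) have been linked to the entry of cyclic dinucleotides such as cGAMP, the ligand of STING.

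The promoters of one carrier per subset are shown because these genes differed from the other subsets by the largest margins. Each is the member that was higher in its subset than in both others by the largest margin, taken as the smaller of its log2 fold changes, with a mean count of at least 100 there, no antisense exon overlap above 10% and a promoter among the 143 of 190 members matched in the RefSeq table (GRCm38.p6). The window runs from 250 bases before to 50 bases after the annotated start. Slc22a18, an organic cation transporter-like gene on the + strand of chr7 that led in cDC1, has the window chr7:143473539-143473838. Slc8a2, a plasma membrane sodium-calcium exchanger on the + strand of chr7 that led in cDC2, has the window chr7:16129576-16129875. Slco4a1, an organic anion and thyroid hormone transporter on the + strand of chr2 that led in pDC, has the window chr2:180455995-180456294, the first of its 2 listed starts. Capitals mark, on either strand, matches to the E-boxes CACCTG and CAGCTG, which E proteins such as the pDC regulator Tcf4 bind, to AGGAAGT, a core bound by ETS factors, and to GAAANNGAA, a core bound by interferon regulatory factors.
Slc22a18: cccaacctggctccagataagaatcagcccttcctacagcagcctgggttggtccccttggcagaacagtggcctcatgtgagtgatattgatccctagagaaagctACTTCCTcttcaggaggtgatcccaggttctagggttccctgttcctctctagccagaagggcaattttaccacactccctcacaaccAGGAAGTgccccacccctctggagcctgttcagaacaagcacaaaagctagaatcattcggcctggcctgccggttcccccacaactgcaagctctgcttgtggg
Slc8a2: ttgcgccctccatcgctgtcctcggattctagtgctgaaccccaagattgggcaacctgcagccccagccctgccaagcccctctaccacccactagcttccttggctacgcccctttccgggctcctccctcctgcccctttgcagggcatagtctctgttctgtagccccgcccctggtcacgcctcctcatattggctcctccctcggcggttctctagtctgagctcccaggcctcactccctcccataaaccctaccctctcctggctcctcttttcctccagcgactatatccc
Slco4a1: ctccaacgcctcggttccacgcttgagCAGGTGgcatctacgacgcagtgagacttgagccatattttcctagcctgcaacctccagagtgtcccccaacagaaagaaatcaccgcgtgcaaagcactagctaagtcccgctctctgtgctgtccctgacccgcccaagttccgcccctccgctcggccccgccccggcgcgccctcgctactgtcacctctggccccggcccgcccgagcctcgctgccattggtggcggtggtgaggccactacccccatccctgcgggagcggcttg

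The Slc22a18 window holds AGGAAGT on each strand, the Slco4a1 window holds CACCTG on the opposite strand, and the Slc8a2 window holds none of these letters. The windows contain 2, 10 and 24 CpG dinucleotides for Slc22a18, Slc8a2 and Slco4a1, with a GC content of 54.7, 61.3 and 65.3%. Over all 27025 promoters of this length, one per gene, 20.03% hold CACCTG, 16.1% CAGCTG, 9.57% AGGAAGT and 8.57% GAAANNGAA. Among the 143 matched members the shares were 16.8, 13.99, 10.5 and 4.20%, and the 34 matched members that led in pDC held CACCTG in 4 cases and CAGCTG in 6. A match describes these letters only.

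Most carriers differed among the subsets. In all, 135 of 190 members (71.1%) differed in the test of any difference among the 3 subsets, against 56.0% of all genes tested. Against cDC1, pDC had 58 members higher (30.5%, against 24.3% of all genes) and 57 lower (30.0%, against 24.4%). Against cDC2, pDC had 63 higher (33.2%, against 22.5%) and 43 lower (22.6%, against 23.3%). The 2 conventional subsets differed from each other in fewer members, and 39 members were higher in cDC2 than in cDC1 (20.5%, against 12.7%) and 36 lower (18.9%, against 11.7%). When replicate number entered as a block, the last of these counts was 55, and without replicate 3 of every subset it was 58. The median size of a log2 fold change, whatever its sign, was 0.73 over members and 0.63 over all genes when pDC was set against cDC1, 0.66 and 0.59 between pDC and cDC2, and 0.48 and 0.36 between the cDC subsets. All 190 members passed the filter on low counts. Since a member high in a single subset can pass through that subset alone, these shares are given as counts and carry no test. The 13819 genes tested were not held to the limit of 300 summed counts set for members, which 11921 of the genes listed reached. Shares and medians of all genes, here and below, therefore include genes counted less than any member. The part of this in the differences from members was not tested.

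Each subset had its own leading carriers. In pDC, 43 members were higher than in both other subsets (22.6%, against 17.2% of all genes) and 33 were lower (17.4%, against 16.7%). In cDC1, 24 were higher (12.6%, against 7.14%) and 20 lower (10.5%, against 6.24%), and in cDC2 19 were higher (of all genes, 6.53%) and 13 lower (6.84%, against 4.33%). The count leading in cDC1 of 24 became 15 without cDC2 replicate 1, 34 without pDC replicate 3 and 41 without replicate 3 of every subset. The replicate block moved the count lowest in cDC2 from 13 to 22. Summed over members, the level was 8640.1 ± 751 CPM (SD) in cDC1, 8696 ± 441 in cDC2 and 10753 ± 597 in pDC, and the pDC libraries (10237 to 11407) lay above all cDC libraries (at most 9503). This sum gives most weight to abundant genes, and not every substrate class rose. The 11 carriers of vitamins, haem and choline, Slc44a2 among them, summed to 747, 1424 and 2002 CPM in cDC1, cDC2 and pDC. The 36 mitochondrial carriers summed to 2568, 2137 and 2034 CPM in the same order. Some marker lists of other cell types were also higher in every pDC library than in any cDC library. The 6 plasma cell genes summed to 1239 to 2145 CPM in pDC, 114 to 143 in cDC1 and 101 to 105 in cDC2. In pDC these were mostly Igha (610.3 to 1579), Xbp1 (333 to 373) and Mzb1 (144 to 228, against at most 1.98 in cDC). Sdc1 stood at 44.1 to 49.5 in pDC against at most 1.97 in cDC, while Prdm1 was at most 0.696 and Tnfrsf17 at most 1.17 in pDC. Likewise 8 monocyte or neutrophil genes summed to 2203 to 3060.05 CPM in pDC, 78.1 to 174 in cDC1 and 165 to 267 in cDC2. In pDC, Ly6c2, which pDC also express, made up 1954 to 2714 of this. Ccr2 was also highest there, at 244 to 312 CPM against 60.3 to 101 in cDC1 and 111 to 173 in cDC2. S100a8 in pDC was at most 9.86 and Ly6g at most 0.0908. The part of such cells in the levels of pDC was not tested. Per kilobase of exon, the highest members were Slc25a5, a mitochondrial ADP/ATP translocase, at 278 CPM per kb over all libraries, Slc46a3 at 153, Slc25a11 at 87.7, Slc25a4 at 85.5 and Slc44a2 at 74.5. The order below Slc25a5 differed by subset: next came Slc8b1 in cDC1 (154 CPM per kb), Slc46a3 in cDC2 (263) and Slc44a2 in pDC (148).

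Sorted by substrate, the called members of the classes were split differently between directions. Amino acid and peptide carriers were called higher in pDC and in cDC2 than in cDC1 more often than lower, the called metal carriers were more often higher than lower in pDC, and the called ion carriers more often lower. The class counts below can be read against the shares of all genes given above, namely 24.3% higher and 24.4% lower in pDC relative to cDC1, 22.5% and 23.3% relative to cDC2, and 12.7% and 11.7% in cDC2 relative to cDC1. For reference, the median log2 fold change of all genes tested was 0.02 in pDC relative to cDC1, -0.01 in pDC relative to cDC2 and 0.03 in cDC2 relative to cDC1. The differences between classes were not tested, and the shares of all genes include genes under the limit for members.

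**Figure D1:**
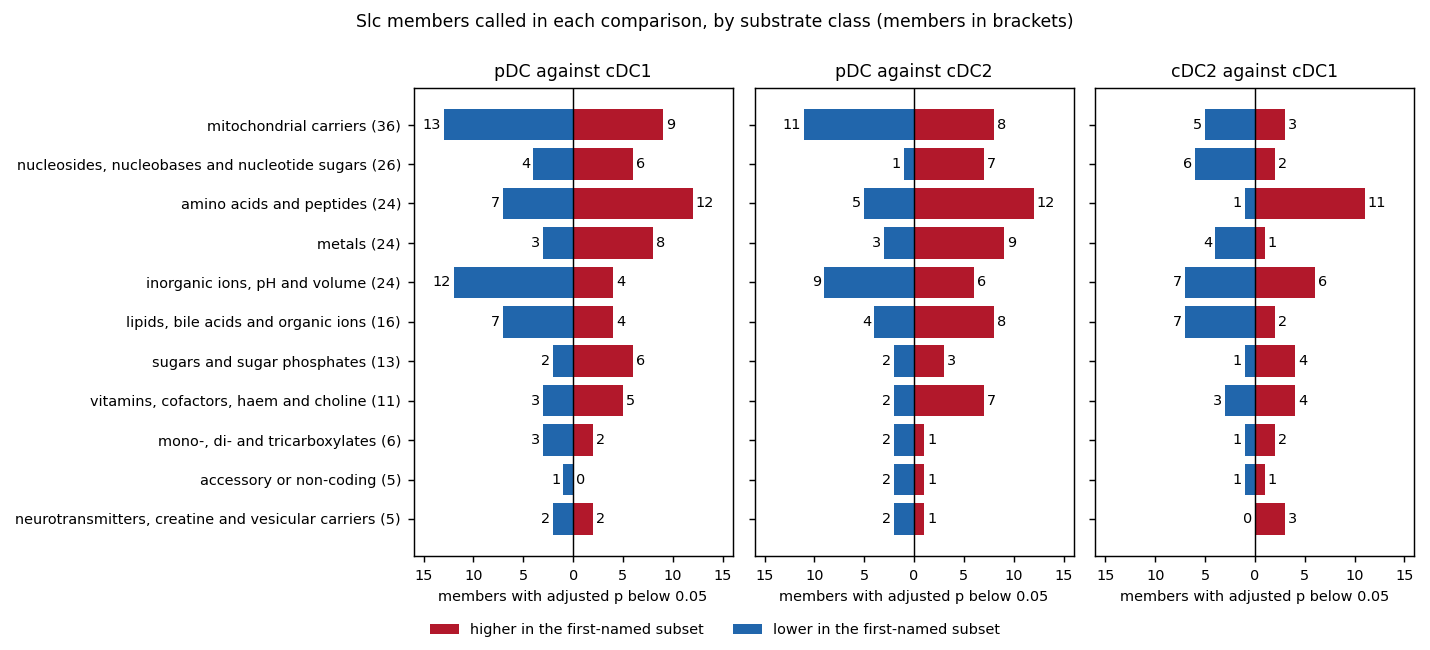
Number of Slc members with an edgeR adjusted p below 0.05 in each comparison (horizontal axis), by substrate class (rows, with the number of members in brackets). Red bars to the right count members higher in the first-named subset and blue bars to the left count members lower there; amino acid and peptide carriers show 12 higher and 7 lower in pDC than in cDC1, and mitochondrial carriers 9 higher and 13 lower.

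Of 8 endolysosomal carriers, 6 were higher and 2 lower in pDC than in cDC1 (median log2 fold change 1.08). Against cDC2, 4 were higher and 2 lower in pDC (median 0.30), and cDC2 exceeded cDC1 in 6 and fell below it in 1 (median 0.94). The carriers that export peptides and nucleosides from the lysosome rose in pDC, while Slc46a3 and Slc11a1 were lowest there.

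Slc15a4, a proton-coupled carrier of histidine and peptides, stood at 55.3, 52.4 and 46.6 CPM in cDC1, 180.1, 166 and 126 in cDC2 and 243, 231 and 209.98 in pDC. The subsets did not overlap and were ordered pDC above cDC2 above cDC1, with pDC 4.43-fold above cDC1 (log2 fold change 2.15 ± 0.15, edgeR adjusted p = 1.87e-06) and cDC2 3.06-fold above cDC1 (log2 fold change 1.61 ± 0.14, edgeR adjusted p = 4.15e-05). Between cDC2 and pDC the difference was smaller (log2 fold change 0.54 ± 0.14, edgeR adjusted p = 0.0108). Slc15a3, its close relative, followed the same order at 14.6, 10.9 and 20.2 CPM in cDC1, 52.1, 46.8 and 44.3 in cDC2 and 118, 104 and 109 in pDC, again without overlap. It was 7.29-fold higher in pDC than in cDC1 (log2 fold change 2.87 ± 0.21, edgeR adjusted p = 2.47e-06) and 2.32-fold higher than in cDC2 (log2 fold change 1.21 ± 0.19, edgeR adjusted p = 5.83e-04). Exons of Tmem132a cover 28.1% of the Slc15a3 exons on the other strand, and Tmem132a itself was lowest in pDC, at 0.320 ± 0.304 CPM against 11.7 ± 2.33 in cDC1. Slc29a3, the lysosomal nucleoside carrier, separated pDC from both cDC, at 67.98, 66.6 and 74.5 CPM in cDC1, 75.2, 70.2 and 98.2 in cDC2 and 352, 300.02 and 372 in pDC. Its level was 4.90-fold higher in pDC than in cDC1 (log2 fold change 2.29 ± 0.15, edgeR adjusted p = 1.31e-06) and 4.21-fold higher than in cDC2 (log2 fold change 2.07 ± 0.15, edgeR adjusted p = 2.50e-06), and the cDC1 and cDC2 libraries overlapped.

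Slc46a3, a lysosomal carrier of the proton-coupled folate family, was lowest in pDC and highest in cDC2. It stood at 347, 317 and 415 CPM in cDC1, 631, 583 and 728 in cDC2 and 115, 97.02 and 148 in pDC, and no subset overlapped another. The level in pDC was 5.40-fold below that in cDC2 (log2 fold change -2.43 ± 0.18, edgeR adjusted p = 2.76e-06) and 3.00-fold below that in cDC1 (log2 fold change -1.58 ± 0.17, edgeR adjusted p = 3.89e-05). Among the other carriers linked to cyclic dinucleotide entry, Slc19a1, the reduced folate carrier, was low, at 6.88, 5.71 and 12.5 CPM in cDC1, 5.16, 4.41 and 6.64 in cDC2 and 10.3, 9.68 and 13.2 in pDC. The cDC1 libraries of Slc19a1 overlapped both other subsets, and its higher level in pDC than in cDC2 (log2 fold change 1.04, edgeR adjusted p = 0.0216) did not pass the test without cDC2 replicate 1 or 2, or pDC replicate 3 (edgeR adjusted p from 0.0530 to 0.0767). Slc46a2 had no count in any library and Slc46a1 summed to 214 counts, under the limit for members.

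RNA of Slc11a1, the gene of the phagosomal iron exporter, was highest in cDC1. Whether the carrier works in these C57BL/6J mice was not tested. Slc11a1 stood at 136, 134 and 197 CPM in cDC1, 24.98, 20.96 and 31.3 in cDC2 and 8.41, 2.74 and 12.95 in pDC, with no overlap between any subsets. The drop against cDC1 was 6.05-fold in cDC2 (log2 fold change -2.60 ± 0.43, edgeR adjusted p = 0.00164) and 19.4-fold in pDC (log2 fold change -4.28 ± 0.47, edgeR adjusted p = 4.22e-05). Markers of red pulp macrophages, which also express Slc11a1, summed over 8 genes to 227, 158 and 181 CPM in cDC1, 375, 194 and 303 in cDC2 and 181, 55.7 and 211 in pDC. The highest sum was in cDC2, and pDC replicate 2 was lowest in both the summed markers and Slc11a1. Single markers differed in order. Vcam1 ran from 56.7 to 95.5 CPM in cDC1, 44.3 to 85.6 in cDC2 and 8.06 to 48.1 in pDC. Hmox1 ran from 69.5 to 78.8, 45.4 to 69.8 and 29.6 to 58.3 CPM in the same order. Spic, Mertk, C1qa, C1qb and C1qc were higher in every cDC2 library than in any cDC1 library, and Cd5l overlapped between them. None of the 8 markers was at or under 3 counts in all libraries, and the part of macrophage RNA in the cDC1 and pDC levels was not tested. The remaining lysosomal carriers had smaller differences. Slc17a5, which exports sialic acid, was lower in cDC1 (5.99 ± 0.290 CPM, SD) than in cDC2 (12.3 ± 2.78) and pDC (14.02 ± 2.06), with edgeR adjusted p of 0.00504 and 8.48e-04. Slc36a1, a lysosomal amino acid exporter, had the same pattern (6.62, 14.8 and 12.7 CPM in cDC1, cDC2 and pDC, edgeR adjusted p = 0.00225 and 0.00350 against cDC1). Slc38a9, the lysosomal arginine sensor of the mTOR pathway, was higher in pDC than in cDC1 (31.8 against 17.4 CPM, log2 fold change 0.87 ± 0.13, edgeR adjusted p = 2.95e-04). Its level in cDC2 (23.9) lay between, and the call of pDC against cDC2 (edgeR adjusted p = 0.0221) did not pass the test without cDC2 replicate 1, or pDC replicate 1 or 2, or with no count filter (edgeR adjusted p from 0.0541 to 0.0888), while that of cDC2 against cDC1 (edgeR adjusted p = 0.0236) did not pass the test without cDC1 replicate 1 or 2, or cDC2 replicate 2, or with no count filter (edgeR adjusted p from 0.0620 to 0.116).

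**Figure D2:**
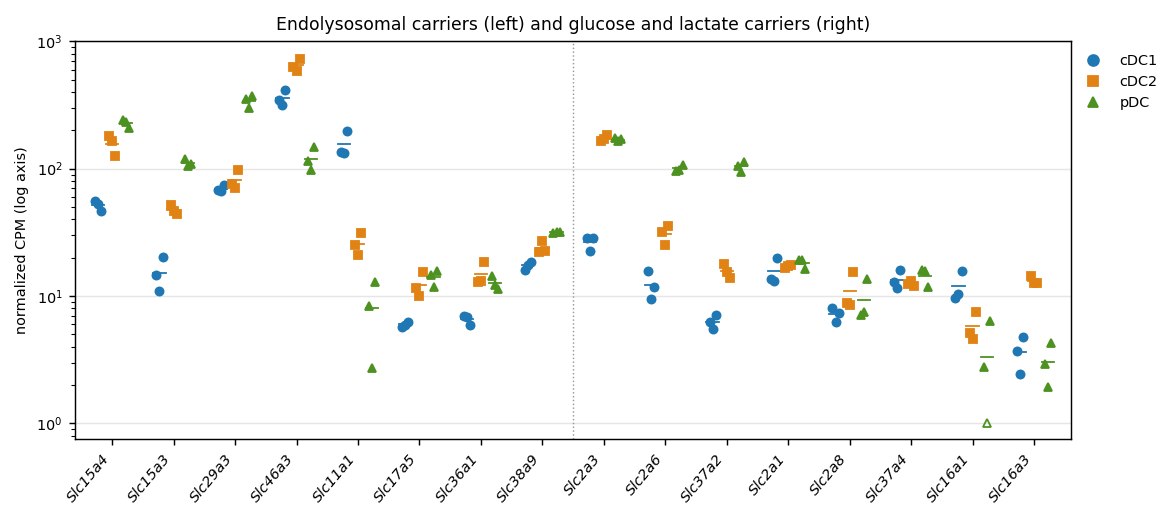
TMM-normalized CPM per library (log axis) for 8 endolysosomal carriers, left of the dotted line, and 8 glucose and lactate carriers, right of it, in cDC1 (circles), cDC2 (squares) and pDC (triangles), with a bar at the mean of the 3 libraries and an open symbol at the lower edge for a library under 1 CPM. Slc15a4 and Slc15a3 rise from cDC1 over cDC2 to pDC, Slc46a3 is lowest in pDC, and Slc2a3 is about equal in cDC2 and pDC and lower in cDC1.

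Of the 13 sugar and sugar phosphate carriers, 6 were higher and 2 lower in pDC than in cDC1 (median log2 fold change 0.92). Against cDC2, 3 were higher and 2 lower in pDC (median 0.09), and cDC2 exceeded cDC1 in 4 and fell below it in 1 (median 0.60). The glucose transporters of the cell surface did not move together: Slc2a3 was low in cDC1, and Slc2a1 passed no test. Slc2a3, a high-affinity glucose transporter, stood at 28.7, 22.4 and 28.3 CPM in cDC1, 166, 171 and 183 in cDC2 and 174, 164 and 170.2 in pDC. The cDC1 libraries lay far below the others, with 6.56-fold more in cDC2 (log2 fold change 2.71 ± 0.12, edgeR adjusted p = 1.06e-06) and 6.40-fold more in pDC (log2 fold change 2.68 ± 0.12, edgeR adjusted p = 1.42e-07), whereas the cDC2 and pDC libraries overlapped. Slc2a1, the basal glucose transporter, stood at 13.6, 13.2 and 19.97 CPM in cDC1, 16.5, 17.2 and 17.5 in cDC2 and 19.1, 19.1 and 16.4 in pDC, and its largest log2 fold change was 0.23 ± 0.18 (edgeR adjusted p = 0.325).

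Some intracellular sugar carriers led in pDC. Slc37a2, a sugar phosphate exchanger of the endoplasmic reticulum, stood at 6.23, 5.46 and 7.11 CPM in cDC1, 17.7, 15.4 and 13.8 in cDC2 and 106, 93.98 and 113 in pDC. The 3 subsets were separate, and pDC was 16.7-fold above cDC1 (log2 fold change 4.06 ± 0.16, edgeR adjusted p = 7.17e-08) and 6.66-fold above cDC2 (log2 fold change 2.73 ± 0.15, edgeR adjusted p = 4.40e-07). Slc2a6, a lysosomal member of the glucose transporter family, followed the same order at 15.6, 9.50 and 11.8 CPM in cDC1, 31.9, 25.1 and 35.4 in cDC2 and 95.4, 98.4 and 107 in pDC. It was 8.14-fold higher in pDC than in cDC1 (log2 fold change 3.03 ± 0.20, edgeR adjusted p = 1.60e-06) and 3.26-fold higher than in cDC2 (log2 fold change 1.71 ± 0.19, edgeR adjusted p = 5.71e-05). Slc50a1, the single SWEET-type sugar carrier of the mouse, was 60.01 ± 11.2 CPM (SD) in pDC against 24.6 ± 4.60 in cDC1 and 27.95 ± 3.61 in cDC2 (log2 fold change 1.29 ± 0.18, edgeR adjusted p = 2.56e-04, against cDC1). By contrast Slc2a8, an intracellular glucose transporter, and Slc37a4, the microsomal glucose phosphate carrier, had no call in any comparison, at 7.21, 10.99 and 9.37 CPM and 13.4, 12.5 and 14.5 CPM in cDC1, cDC2 and pDC. The relatives of Slc37a2, named after their values were seen, fell in pDC instead, Slc37a3 to 5.35, 5.07 and 5.24 CPM from 18.4, 20.8 and 17.8 in cDC1 (log2 fold change -1.86 ± 0.17, edgeR adjusted p = 1.21e-05) and Slc37a1 to 15.4, 17.98 and 17.1 from 24.5, 23.8 and 30.3 (log2 fold change -0.64 ± 0.14, edgeR adjusted p = 0.00383). Slc45a4, named likewise, was lower in cDC1 (12.4, 28.7 and 23.3 CPM in cDC1, cDC2 and pDC, edgeR adjusted p = 1.05e-04 for cDC2 and 2.38e-04 for pDC). Slc45a4 (0.0446) was lower in pDC relative to cDC2, with the replicate block but not without it (blocked edgeR adjusted p in brackets).

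Lactate leaves or enters cells through the monocarboxylate carriers. Of the 6 carboxylate carriers, 2 were higher and 3 lower in pDC than in cDC1 (median log2 fold change -1.05). Against cDC2, 1 was higher and 2 lower in pDC (median -0.89), and cDC2 exceeded cDC1 in 2 and fell below it in 1 (median -0.40). Slc16a3, the lactate exporter of glycolytic cells, stood at 3.71, 2.46 and 4.74 CPM in cDC1, 14.2, 12.6 and 12.6 in cDC2 and 2.93, 1.93 and 4.30 in pDC, so cDC2 lay above both other subsets, by 3.64-fold over cDC1 (log2 fold change 1.86 ± 0.33, edgeR adjusted p = 0.00249) and 4.32-fold over pDC (log2 fold change -2.11 ± 0.33, edgeR adjusted p = 5.61e-04). Slc16a1, the more widely used lactate carrier, stood at 9.61, 10.3 and 15.8 CPM in cDC1, 5.16, 4.62 and 7.54 in cDC2 and 2.75, 0.861 and 6.36 in pDC. Its values were highest in cDC1, but neither cDC2 against cDC1 nor pDC against cDC2 was called. Its lower level in pDC than in cDC1 (log2 fold change -1.85, edgeR adjusted p = 0.0211) did not pass the test without cDC1 replicate 3, or pDC replicate 1 (edgeR adjusted p from 0.0675 to 0.0688). Slc16a7, a high-affinity pyruvate and lactate carrier, was low in cDC1 (1.75, 1.08 and 2.64 CPM) and higher in cDC2 (8.98, 8.68 and 13.3) and pDC (13.6, 13.6 and 17.4), with edgeR adjusted p of 3.79e-04 and 4.24e-05. Slc16a13, among the highest of the class per kilobase, was at 11.9, 9.15 and 17.9 CPM in cDC1, cDC2 and pDC, higher in pDC than in cDC2 (edgeR adjusted p = 0.00131), and its call against cDC1 did not pass the test without cDC1 replicate 1 or 2 (edgeR adjusted p from 0.0582 to 0.0698). Slc16a6, named after its values were seen, was lowest in pDC (10.2, 7.64 and 2.73 CPM in cDC1, cDC2 and pDC, edgeR adjusted p = 1.32e-04 against cDC1 and 7.17e-04 against cDC2). Slc16a7 (0.0427) was higher in pDC relative to cDC2, with the replicate block but not without it (blocked edgeR adjusted p in brackets).

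Among amino acid carriers, calls of a higher level in pDC, and in cDC2 against cDC1, outnumbered those of a lower one. Of the 24 amino acid and peptide carriers, 12 were higher and 7 lower in pDC than in cDC1 (median log2 fold change 0.61). Against cDC2, 12 were higher and 5 lower in pDC (median 0.29), and cDC2 exceeded cDC1 in 11 and fell below it in 1 (median 0.38). The replicate block raised the last count, of members lower in cDC2 than in cDC1, from 1 to 6, and the count higher in cDC2 than in cDC1 was 7 without cDC1 replicate 1 or 2. Of 14 genes listed for amino acid uptake at the surface, 12 were members (Slc7a2 and Slc43a1 summed to 60 and 239 counts), and they split: 3 were higher and 6 lower in pDC when set against cDC1, and 4 higher and 3 lower when set against cDC2. Splits of this class depended on the threshold and the block: at a log2 fold change of 1 or more in size, 3 of the 24 were higher and 4 lower in pDC relative to cDC2, and of the surface list 1 and 3. In cDC2 relative to cDC1 the surface list had 5 higher and 1 lower, and 5 and 6 with the replicate block.

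Slc38a1, a sodium-coupled glutamine carrier, stood at 127, 131 and 127 CPM in cDC1, 212, 218 and 232 in cDC2 and 360.5, 369 and 359.8 in pDC. The levels rose without overlap from cDC1 over cDC2 to pDC, 1.72-fold (log2 fold change 0.78 ± 0.08, edgeR adjusted p = 9.91e-05) and then 1.65-fold (log2 fold change 0.72 ± 0.08, edgeR adjusted p = 6.10e-05). Slc38a2, the stress-inducible glutamine carrier of the same family, led in cDC2 instead, at 88.7, 90.3 and 81.97 CPM in cDC1, 197, 218 and 207 in cDC2 and 86.7, 87.4 and 84.7 in pDC. Its levels in cDC1 and pDC overlapped, and cDC2 lay 2.38-fold above cDC1 (log2 fold change 1.25 ± 0.09, edgeR adjusted p = 1.13e-05) and 2.40-fold above pDC (log2 fold change -1.27 ± 0.09, edgeR adjusted p = 2.67e-06). Slc43a2, a carrier of large neutral amino acids, was 2.58-fold higher in cDC2 (log2 fold change 1.36 ± 0.10, edgeR adjusted p = 1.63e-05) and 2.30-fold higher in pDC (log2 fold change 1.20 ± 0.10, edgeR adjusted p = 8.40e-06) than in cDC1, at 59.5, 53.7 and 50.8 CPM in cDC1, 147, 136 and 140.4 in cDC2 and 136, 123 and 118 in pDC.

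The CD98 carriers import essential amino acids as pairs of the heavy chain Slc3a2 and a light chain. Slc3a2 stood at 118, 112 and 152 CPM in cDC1, 102, 91.9 and 101 in cDC2 and 127, 126 and 198 in pDC, and its higher level in pDC than in cDC2 (log2 fold change 0.61, edgeR adjusted p = 0.0237) did not pass the test without cDC2 replicate 1 or 2, or pDC replicate 3 (edgeR adjusted p from 0.0552 to 0.0717). Slc7a5, the leucine-importing light chain, was highest in pDC at 59.2, 59.9 and 92.5 CPM in cDC1, 55.5, 46.99 and 70.98 in cDC2 and 111, 97.1 and 146 in pDC, with a call against cDC2 (log2 fold change 1.03 ± 0.23, edgeR adjusted p = 0.00462), while that against cDC1 (edgeR adjusted p = 0.0223) did not pass the test without cDC1 replicate 1 or 2, or pDC replicate 3 (edgeR adjusted p from 0.0716 to 0.0846). Its relative Slc7a8 led in cDC1 instead: it stood at 25.01, 25.5 and 24.03 CPM in cDC1, 5.19, 3.74 and 2.28 in cDC2 and 2.54, 0.253 and 3.06 in pDC, 6.57-fold lower in cDC2 (log2 fold change -2.72 ± 0.58, edgeR adjusted p = 0.00686) and 12.6-fold lower in pDC (log2 fold change -3.66 ± 0.61, edgeR adjusted p = 7.67e-04). Slc7a7, a light chain that exchanges basic for neutral amino acids, was lowest in pDC (14.7 CPM, against 36.7 in cDC2, log2 fold change -1.31 ± 0.18, edgeR adjusted p = 1.90e-04), and its call of cDC2 over cDC1 (edgeR adjusted p = 0.0254) did not pass the test without cDC1 replicate 1, 2 or 3, or cDC2 replicate 1 or 3, or with replicate 3 of every subset left out (edgeR adjusted p from 0.0536 to 0.0938). Slc7a6, which shares that substrate range, had the reverse order, with 46.7 CPM in pDC and 24.3 in cDC2 (log2 fold change 0.95 ± 0.19, edgeR adjusted p = 0.00248). Against cDC1 (33.4 CPM), pDC did not pass the test for Slc7a6 but did with the replicate block (adjusted p = 0.00650 in edgeR, 0.0567 without it).

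Slc7a11, the cystine importer that supplies glutathione synthesis, was detected mainly in cDC2, at 0.692, 0.542 and 0.948 CPM in cDC1, 10.4, 7.80 and 10.4 in cDC2 and 0.242, 0.203 and 0.236 in pDC. The cDC2 libraries lay 13.2-fold above cDC1 (log2 fold change 3.72 ± 0.32, edgeR adjusted p = 3.39e-05) and 40.8-fold above pDC (log2 fold change -5.35 ± 0.36, edgeR adjusted p = 1.95e-06). The difference between the low levels of pDC and cDC1 (edgeR adjusted p = 0.00478) did not pass the test with limma-voom or only the 6 libraries compared (adjusted p from 0.0527 to 0.0840). Slc1a5, a glutamine and neutral amino acid exchanger, was lower in pDC than in cDC1 (58.4, 54.3 and 67.01 against 86.1, 83.4 and 124 CPM, log2 fold change -0.71 ± 0.20, edgeR adjusted p = 0.0136), with cDC2 between at 67.95, 66.7 and 96.6. The cationic amino acid carrier Slc7a1 (53.6, 40.6 and 40.9 CPM in cDC1, cDC2 and pDC) and the serine exchanger Slc1a4 (2.61, 1.51 and 0.710) were each called lower in pDC than in cDC1. The Slc7a1 call did not pass the test without cDC1 replicate 2 or 3, cDC2 replicate 1, or pDC replicate 1 or 2, or with library size scaling, no count filter or only the 6 libraries compared (edgeR adjusted p from 0.0520 to 0.129), and the Slc1a4 call did not pass the test without cDC1 replicate 1, 2 or 3, cDC2 replicate 1, or pDC replicate 1 or 2 (edgeR adjusted p from 0.0532 to 0.119). Of members chosen after their values were seen, Slc36a4, a carrier of proline and tryptophan, rose to 42.5 CPM in pDC from 17.1 in cDC1 (log2 fold change 1.32 ± 0.18, edgeR adjusted p = 1.69e-04), and the aromatic amino acid carrier Slc16a10 to 15.1 from 4.03 (log2 fold change 1.92 ± 0.32, edgeR adjusted p = 7.36e-04). Among rarer members, also chosen so, the peptide carrier Slc15a2 was higher in pDC than in cDC1 (5.48, 2.53 and 5.48 against 1.89, 1.21 and 1.08 CPM, log2 fold change 1.67 ± 0.41, edgeR adjusted p = 0.00698) and the amino acid carrier Slc36a3 lower (0.242, 0.355 and 0 against 1.75, 2.29 and 3.86 CPM, log2 fold change -3.63 ± 0.82, edgeR adjusted p = 0.00464). The taurine carrier Slc6a6, chosen so too and among the more abundant of the class, was slightly higher in cDC2 (168, 207 and 173 CPM in cDC1, cDC2 and pDC), calls with edgeR adjusted p of 0.0350 against cDC1 and 0.0389 against pDC. The call against cDC1 did not pass the test without cDC1 replicate 1, 2 or 3, cDC2 replicate 1, 2 or 3, or pDC replicate 1 or 2, or with upper quartile scaling, no count filter or only the 6 libraries compared (edgeR adjusted p from 0.0503 to 0.134), and that against pDC did not pass the test without cDC1 replicate 1 or 2, cDC2 replicate 1 or 2, or pDC replicate 1, 2 or 3, or with no count filter or only the 6 libraries compared (edgeR adjusted p from 0.0595 to 0.118). Slc1a5 (0.00718) was lower in pDC relative to cDC2, Slc36a4 (0.0367) was higher in cDC2 relative to cDC1, and Slc1a5 (0.0119), Slc3a2 (0.0368), Slc7a1 (0.00622), Slc7a5 (0.0251) and Slc7a6 (0.0129) were lower in cDC2 relative to cDC1, with the replicate block but not without it (blocked edgeR adjusted p in brackets).

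Most zinc importers rose in pDC. Of 10 measured members of the Slc39 family of zinc importers, 6 were higher and 0 lower in pDC than in cDC1 (median log2 fold change 0.62). Against cDC2, 7 were higher and 1 lower in pDC (median 0.69), and cDC2 exceeded cDC1 in 1 and fell below it in 0 (median -0.06). Against cDC1 the higher genes were Slc39a3, Slc39a7, Slc39a9, Slc39a10, Slc39a11 and Slc39a14. The Slc30 genes, which move zinc out of the cytosol, were called less: of 6 members, 1 was higher in pDC than in cDC1 (Slc30a5) and none lower, while Slc30a1, Slc30a4, Slc30a6, Slc30a7 and Slc30a9 passed no test. Over all 24 metal carriers, 8 were higher and 3 lower in pDC than in cDC1 (median log2 fold change 0.24). Against cDC2, 9 were higher and 3 lower in pDC (median 0.26), and cDC2 exceeded cDC1 in 1 and fell below it in 4 (median -0.09). With the replicate block, 7 metal carriers were lower in cDC2 than in cDC1 in place of 4, and 2 zinc exporters were higher in pDC than in cDC1 in place of 1. Without replicate 3 of every subset, 4 of the 6 Slc30 genes were higher and 1 lower in pDC relative to cDC1, and 6 of the 10 importers higher. At a log2 fold change of 1 or more in size, 2 of the 24 metal carriers were higher and 3 lower in pDC relative to cDC1. Of the 10 zinc importers, 1 was higher in pDC relative to cDC1 at that size, and 3 were higher and 0 lower relative to cDC2.

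Slc39a14, which takes up zinc, manganese and non-transferrin iron, stood at 6.99, 6.63 and 10.6 CPM in cDC1, 9.24, 8.68 and 8.02 in cDC2 and 106, 113 and 106 in pDC. The pDC libraries were far above all others, 13.5-fold (log2 fold change 3.75 ± 0.19, edgeR adjusted p = 2.51e-07) and 12.5-fold (log2 fold change 3.64 ± 0.18, edgeR adjusted p = 3.00e-07) above cDC1 and cDC2. Slc39a11 was higher in pDC at 86.9, 86.5 and 91.4 CPM than in cDC1 at 39.5, 42.9 and 54.9 (log2 fold change 0.95 ± 0.13, edgeR adjusted p = 2.28e-04) and cDC2 at 35.7, 36.7 and 39.6 (log2 fold change 1.24 ± 0.13, edgeR adjusted p = 4.24e-05). Slc39a9 likewise stood at 98.2, 83.5 and 127 CPM in pDC against 51.5, 52.2 and 61.3 in cDC1 (log2 fold change 0.90 ± 0.18, edgeR adjusted p = 0.00193) and 50.05, 48.6 and 64.9 in cDC2. The smaller rises were less steady. Slc39a3 rose in pDC (33.7 CPM against 19.6 in cDC1, edgeR adjusted p = 0.00281), and its call against cDC2 did not pass the test without cDC2 replicate 2 (edgeR adjusted p = 0.0678). Slc39a10 (22.4, 20.3 and 30.6 CPM in cDC1, cDC2 and pDC) was called against cDC1 with edgeR adjusted p = 0.0218, which did not pass the test without cDC1 replicate 1, or pDC replicate 2 or 3 (edgeR adjusted p from 0.0506 to 0.0838). Slc39a7 (6.29, 5.39 and 10.9 CPM) shares 71.6% of its 75-base windows with the overlapping Gm20427, listed with 9 counts in all, and its call against cDC1 did not pass the test without cDC1 replicate 1 or 3, cDC2 replicate 1 or 2, or pDC replicate 1 or 2, or with no count filter (edgeR adjusted p from 0.0507 to 0.107). Among the importers, Slc39a6 led in cDC2 (63.9 ± 2.40 CPM, SD, against 42.3 ± 1.55 in cDC1 and 48.8 ± 3.05 in pDC, edgeR adjusted p = 0.00165 and 0.00862). Slc39a1 and Slc39a13 had no call, and Slc39a8 was called only in pDC against cDC2, a call that did not pass the test without cDC1 replicate 1 or 2, cDC2 replicate 2 or 3, or pDC replicate 1 or 3, or with no count filter, only the 6 libraries compared or replicate 3 of every subset left out (edgeR adjusted p from 0.0510 to 0.109). Slc30a5, a zinc carrier of the secretory pathway, stood at 167, 171 and 134 CPM in pDC against 95.1, 90.1 and 111 in cDC1 (log2 fold change 0.67 ± 0.12, edgeR adjusted p = 0.00134) and 99.02, 98.9 and 103 in cDC2.

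**Figure D3:**
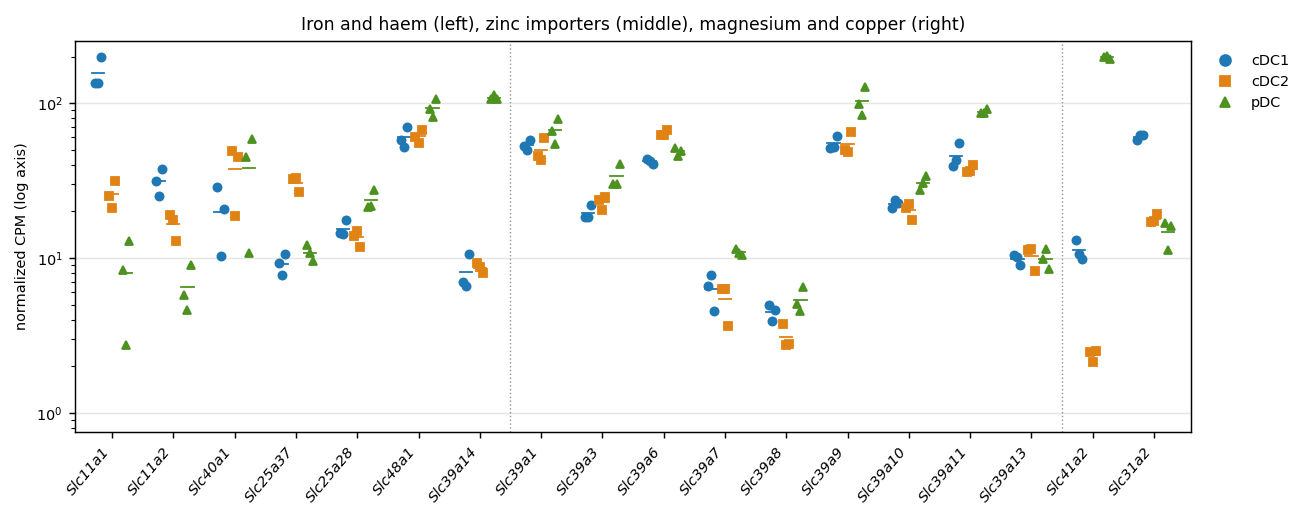
TMM-normalized CPM per library (log axis) for iron and haem carriers (left), zinc importers (middle; Slc39a14, on both lists, is drawn on the left), and the magnesium and copper carriers Slc41a2 and Slc31a2 (right), in cDC1 (circles), cDC2 (squares) and pDC (triangles), with a bar at the mean of 3 libraries. Slc11a1 and Slc11a2 fall from cDC1 over cDC2 to pDC, Slc40a1 is lowest in replicate 2 of each subset, and Slc39a14 and Slc41a2 stand out in pDC.

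Several iron carriers had other orders. Slc11a2, which moves ferrous iron out of endosomes, fell like Slc11a1 from cDC1 to pDC, at 31.3, 25.2 and 37.7 CPM in cDC1, 19.1, 17.6 and 12.9 in cDC2 and 5.75, 4.61 and 9.07 in pDC. It was 4.86-fold lower in pDC than in cDC1 (log2 fold change -2.28 ± 0.28, edgeR adjusted p = 9.21e-05) and 2.57-fold lower than in cDC2 (log2 fold change -1.36 ± 0.27, edgeR adjusted p = 0.00245), and its call of cDC2 against cDC1 (edgeR adjusted p = 0.0292) did not pass the test without cDC1 replicate 1 or 3, or cDC2 replicate 1, 2 or 3 (edgeR adjusted p from 0.0532 to 0.100). Slc40a1, ferroportin, the iron exporter of the cell surface, varied widely between replicates, at 28.5, 10.3 and 20.8 CPM in cDC1, 49.03, 18.8 and 45.2 in cDC2 and 44.8, 10.7 and 58.4 in pDC. Replicate 2 was lowest in each subset, as it was for the red pulp macrophage markers given above, a cell type in which Slc40a1 is abundant, and their part in these values was not tested. No comparison of Slc40a1 passed the test (edgeR adjusted p of 0.227, 0.989 and 0.323 for pDC relative to cDC1, pDC relative to cDC2 and cDC2 relative to cDC1), while with the replicate block pDC and cDC2 were each higher than cDC1 (edgeR adjusted p = 0.0184 and 0.0142).

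The mitochondrial iron importers parted. Slc25a37, mitoferrin of haem-making cells, was highest in cDC2, at 9.28, 7.75 and 10.6 CPM in cDC1, 32.2, 32.7 and 26.7 in cDC2 and 12.1, 10.8 and 9.60 in pDC. It was 3.33-fold above cDC1 (log2 fold change 1.74 ± 0.17, edgeR adjusted p = 7.47e-05) and 2.82-fold above pDC (log2 fold change -1.49 ± 0.17, edgeR adjusted p = 6.61e-05), while 7 erythroid markers summed to 45.2 to 58.6 CPM in cDC1, 48.5 to 66.9 in cDC2 and 37.1 to 68.01 in pDC, ranges that overlapped. Slc25a28, its counterpart in other cells, was higher in pDC (23.5 ± 3.36 CPM, SD) than in cDC2 (13.6 ± 1.60, edgeR adjusted p = 0.00329), and its call against cDC1 did not pass the test without cDC1 replicate 1 or 2 (edgeR adjusted p from 0.0541 to 0.0562). Slc48a1, which moves haem out of the endolysosome, was modestly higher in pDC (91.4, 81.5 and 106 CPM) than in cDC1 (57.6, 52.3 and 70.5, log2 fold change 0.63 ± 0.15, edgeR adjusted p = 0.00583) and cDC2 (59.99, 55.3 and 67.4, log2 fold change 0.61 ± 0.15, edgeR adjusted p = 0.00729). Outside iron and zinc, Slc41a2, a magnesium carrier, stood at 13.04, 10.7 and 9.81 CPM in cDC1, 2.48, 2.13 and 2.50 in cDC2 and 198, 201 and 193 in pDC. Its order was pDC above cDC1 above cDC2 without overlap, 17.6-fold between pDC and cDC1 (log2 fold change 4.14 ± 0.14, edgeR adjusted p = 3.65e-08) and 83.2-fold between pDC and cDC2 (log2 fold change 6.38 ± 0.16, edgeR adjusted p = 2.52e-08). Slc31a2, a copper carrier of endosomes chosen after its values were seen, led in cDC1 at 58.2, 62.2 and 61.8 CPM, against 17.01, 17.4 and 19.2 in cDC2 (log2 fold change -1.76 ± 0.16, edgeR adjusted p = 4.22e-05) and 16.9, 11.2 and 16.02 in pDC (log2 fold change -2.04 ± 0.16, edgeR adjusted p = 4.53e-06). Slc30a1 (0.0458) and Slc39a1 (0.0158) were higher in pDC relative to cDC1, Slc39a1 (0.00266) was higher in pDC relative to cDC2, and Slc30a7 (0.0169) and Slc39a11 (0.0450) were lower in cDC2 relative to cDC1, with the replicate block but not without it (blocked edgeR adjusted p in brackets).

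Called ion carriers were more often lower than higher in pDC. Of the 24 carriers of inorganic ions, 4 were higher and 12 lower in pDC than in cDC1 (median log2 fold change -0.57). Against cDC2, 6 were higher and 9 lower in pDC (median 0.09), and cDC2 exceeded cDC1 in 6 and fell below it in 7 (median -0.01). Calcium carriers separated the conventional subsets. Slc8b1, the sodium-calcium exchanger of mitochondria, stood at 541, 522 and 541 CPM in cDC1, 79.1, 84.3 and 71.2 in cDC2 and 84.9, 83.5 and 79.2 in pDC. Every cDC1 library lay above every other library, 6.84-fold above cDC2 (log2 fold change -2.77 ± 0.10, edgeR adjusted p = 5.06e-07) and 6.48-fold above pDC (log2 fold change -2.70 ± 0.10, edgeR adjusted p = 5.39e-08), and cDC2 and pDC overlapped. Slc8a2, its plasma membrane relative, was instead detected mainly in cDC2, at 1.89, 0.542 and 1.15 CPM in cDC1, 83.4, 76.2 and 84.5 in cDC2 and 0.817, 0.203 and 1.53 in pDC. The cDC2 level was 66.7-fold above that of cDC1 (log2 fold change 6.06 ± 0.50, edgeR adjusted p = 2.59e-05) and 97.7-fold above that of pDC (log2 fold change -6.61 ± 0.52, edgeR adjusted p = 5.24e-06), so these exchangers separated cDC1 from cDC2 in opposite directions. Slc8a1, the cardiac exchanger of the family, chosen after its values were seen, separated pDC instead, at 20.3, 15.2 and 18.8 CPM there against 50.9, 56.1 and 41.97 in cDC1 (log2 fold change -1.46 ± 0.15, edgeR adjusted p = 2.70e-05) and 53.9, 55.2 and 50.8 in cDC2.

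The chloride cotransporters that set cell volume were also divided. Slc12a2, which loads cells with sodium, potassium and chloride, stood at 34.1, 34.5 and 32.2 CPM in cDC1, 166, 197 and 167 in cDC2 and 7.50, 4.36 and 4.36 in pDC. It was 5.25-fold higher in cDC2 than in cDC1 (log2 fold change 2.39 ± 0.20, edgeR adjusted p = 2.47e-05) and 32.1-fold lower in pDC than in cDC2 (log2 fold change -5.01 ± 0.22, edgeR adjusted p = 1.69e-07). Slc12a7, which works in the outward direction, led in cDC1 at 34.3, 34.5 and 37.8 CPM in cDC1, 6.09, 5.95 and 9.08 in cDC2 and 9.68, 8.66 and 4.06 in pDC, 5.07-fold above cDC2 (log2 fold change -2.34 ± 0.30, edgeR adjusted p = 3.80e-04) and 4.72-fold above pDC (log2 fold change -2.24 ± 0.30, edgeR adjusted p = 1.91e-04). Slc12a4, another outward cotransporter, chosen after its values were seen, led in pDC instead, at 40.8, 39.3 and 43.7 CPM against 13.3, 13.3 and 11.2 in cDC1 (log2 fold change 1.71 ± 0.13, edgeR adjusted p = 3.64e-06) and 19.02, 18.7 and 21.5 in cDC2 (log2 fold change 1.06 ± 0.13, edgeR adjusted p = 8.87e-05). These carriers peaked in different subsets, the inward Slc12a2 in cDC2 and the outward Slc12a7 and Slc12a4 in cDC1 and pDC.

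Of 10 members that set pH, 2 were higher and 3 lower in pDC than in cDC1 (median log2 fold change 0.11). Against cDC2, 4 were higher and 2 lower in pDC (median 0.32), and cDC2 exceeded cDC1 in 2 and fell below it in 3 (median -0.12). At a log2 fold change of 1 or more in size, 2 were higher and 1 lower in pDC relative to cDC1. The exchangers of endosomes and Golgi included some that were lowest in cDC2. Slc9a9, of recycling endosomes, stood at 194, 201 and 219.7 CPM in cDC1, 74.5, 79.7 and 82.8 in cDC2 and 214, 195 and 229 in pDC, 2.59-fold lower in cDC2 than in cDC1 (log2 fold change -1.37 ± 0.10, edgeR adjusted p = 1.37e-05). Slc9a7, of the Golgi, had the same shape, with 58.4, 28.4 and 58.3 CPM in cDC1, cDC2 and pDC (log2 fold change -1.04 ± 0.14, edgeR adjusted p = 5.73e-04, cDC2 against cDC1). Slc9a8 was higher in pDC (58.2 ± 4.13 CPM, SD) than in cDC2 (40.8 ± 4.98, edgeR adjusted p = 0.00676). Of the bicarbonate carriers, Slc4a8 was lowest in pDC, at 33.9, 18.9 and 26.2 CPM in cDC1, 73.6, 59.8 and 42.02 in cDC2 and 2.54, 1.72 and 2.83 in pDC, 24.7-fold lower than in cDC2 (log2 fold change -4.63 ± 0.32, edgeR adjusted p = 2.01e-06). Slc4a7, which imports bicarbonate with sodium, led in cDC1 at 78.4, 92.1 and 78.7 CPM, 2.07-fold above cDC2 (log2 fold change -1.05 ± 0.14, edgeR adjusted p = 5.10e-04) and 1.63-fold above pDC (log2 fold change -0.70 ± 0.14, edgeR adjusted p = 0.00249). Slc4a2, the widespread chloride-bicarbonate exchanger, passed no test, at 37.1, 35.7 and 32.5 CPM in cDC1, 36.5, 35.2 and 36.4 in cDC2 and 37.9, 42.1 and 37.7 in pDC. The rarely counted Slc9a2 was highest in cDC2 (6.05, 6.02 and 7.28 CPM against 1.42, 1.21 and 1.35 in cDC1, log2 fold change 2.27 ± 0.30, edgeR adjusted p = 3.89e-04), and Slc4a1, the anion exchanger of erythrocytes, stood at 1.11 to 5.71 CPM over all libraries with no call. Slc4a7 (0.0157) was higher in pDC relative to cDC2, with the replicate block but not without it (blocked edgeR adjusted p in brackets).

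Carriers of lipids and organic ions included several genes detected mainly in 1 subset. Of 16 members, 4 were higher and 7 lower in pDC than in cDC1 (median log2 fold change -0.17). Against cDC2, 8 were higher and 4 lower in pDC (median 0.67), and cDC2 exceeded cDC1 in 2 and fell below it in 7 (median -0.62). Slco4a1, whose promoter is printed above, stood at 0.364, 0.625 and 1.08 CPM in cDC1, 0.669, 0.455 and 0.266 in cDC2 and 108, 135 and 90.03 in pDC. The gene lies at chr2:180456245-180474867 (+ strand) in GRCm38, and pDC exceeded cDC1 by 172-fold (log2 fold change 7.43 ± 0.36, edgeR adjusted p = 2.14e-07) and cDC2 by 226-fold (log2 fold change 7.82 ± 0.36, edgeR adjusted p = 1.96e-07). Slc27a1, which takes up long-chain fatty acids, was also highest in pDC, at 9.76, 11.3 and 11.1 CPM in cDC1, 6.50, 6.09 and 4.83 in cDC2 and 113, 115 and 127 in pDC, 11.1-fold above cDC1 (log2 fold change 3.47 ± 0.14, edgeR adjusted p = 9.14e-08). Its relative Slc27a3 was rarer and uneven, at 2.42, 3.29 and 9.48 CPM in pDC, with edgeR adjusted p = 0.0134 against cDC1 and 0.0105 against cDC2. Slc22a12, the urate exchanger of the kidney, was counted only in pDC apart from a few reads, at 0.0728, 0 and 0 CPM in cDC1, 0, 0 and 0 in cDC2 and 16.3, 16.9 and 14.01 in pDC. No read was counted in cDC2, and against a floor of 3 counts per library pDC was at least 131-fold higher, while against the 2 reads of cDC1 the level in pDC was 527 times (95% exact conditional interval 146 to 4359, counting error only). Slc22a12 lies at chr19:6535845-6543032 (- strand), and exons of Nrxn2 on the other strand cover 30.1% of its own. Nrxn2 had the same profile, at 29.9 ± 4.05 CPM (SD) in pDC and at most 0.105 on average in a cDC subset. The paper names a stranded library kit, but the strand setting of the counting is not given. Whether the counts kept reads of these genes apart in the overlap is therefore not known.

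The organic anion transporter Slco3a1 led in cDC1, at 145, 150.2 and 153 CPM in cDC1, 11.2, 16.8 and 15.2 in cDC2 and 43.3, 46.96 and 53.5 in pDC, without overlap between subsets. It was 10.4-fold lower in cDC2 (log2 fold change -3.38 ± 0.17, edgeR adjusted p = 1.80e-06) and 3.12-fold lower in pDC (log2 fold change -1.64 ± 0.15, edgeR adjusted p = 1.50e-05) than in cDC1. Slco5a1, an orphan of that family, was highest in cDC2, at 15.3, 8.34 and 6.57 CPM in cDC1, 33.1, 30.4 and 20.5 in cDC2 and 0.877, 0.355 and 0.765 in pDC, and 40.8-fold lower in pDC (log2 fold change -5.35 ± 0.44, edgeR adjusted p = 6.87e-06). Its call of cDC2 over cDC1 (edgeR adjusted p = 0.0122) did not pass the test without cDC1 replicate 2, or cDC2 replicate 1 (edgeR adjusted p from 0.0541 to 0.0543). Of the organic cation family, Slc22a18 stood at 9.90, 9.59 and 9.88 CPM in cDC1, 1.31, 1.01 and 2.02 in cDC2 and 0.303, 0 and 0 in pDC, 6.82-fold lower in cDC2 (log2 fold change -2.77 ± 0.61, edgeR adjusted p = 0.00818) and 72.6-fold lower in pDC (log2 fold change -6.18 ± 0.78, edgeR adjusted p = 1.15e-04) than in cDC1. The size of its pDC difference has little precision, since pDC replicates 2 and 3 held no read. Slc22a15 was lowest in pDC (9.02, 5.66 and 1.44 CPM in cDC1, cDC2 and pDC, log2 fold change -2.63 ± 0.32, edgeR adjusted p = 1.01e-04, pDC against cDC1), and Slc22a23, an orphan, was lowest in cDC2 (22.97, 4.90 and 17.3 CPM, log2 fold change -2.21 ± 0.35, edgeR adjusted p = 0.00134, cDC2 against cDC1). The carnitine carrier Slc22a21 was 14.96-fold lower in pDC than in cDC1 (log2 fold change -3.90 ± 0.82, edgeR adjusted p = 0.00309), its call of cDC2 against cDC1 did not pass the test without cDC1 replicate 1, 2 or 3, or cDC2 replicate 1, 2 or 3, or with library size scaling (edgeR adjusted p from 0.0518 to 0.145), and it shares 14.2% of its 75-base windows with Slc22a5. Slc14a1, the urea channel-like carrier, ordered the subsets as cDC2, cDC1, pDC without overlap, at 30.7, 30.5 and 33.9 CPM in cDC1, 64.1, 75.8 and 73.8 in cDC2 and 14.3, 14.9 and 16.1 in pDC (log2 fold change 1.17 ± 0.11, edgeR adjusted p = 6.68e-05 for cDC2 against cDC1). Slc10a3, an orphan of the bile acid family and among the highest of the class per kilobase, stood at 31.5, 25.98 and 41.5 CPM, and its call of pDC over cDC2 did not pass the test without cDC2 replicate 1 (edgeR adjusted p = 0.0584). Slc10a3 (0.0180) was higher in pDC relative to cDC1, and Slc22a21 (0.0377) was lower in pDC relative to cDC2, with the replicate block but not without it (blocked edgeR adjusted p in brackets).

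**Figure D4:**
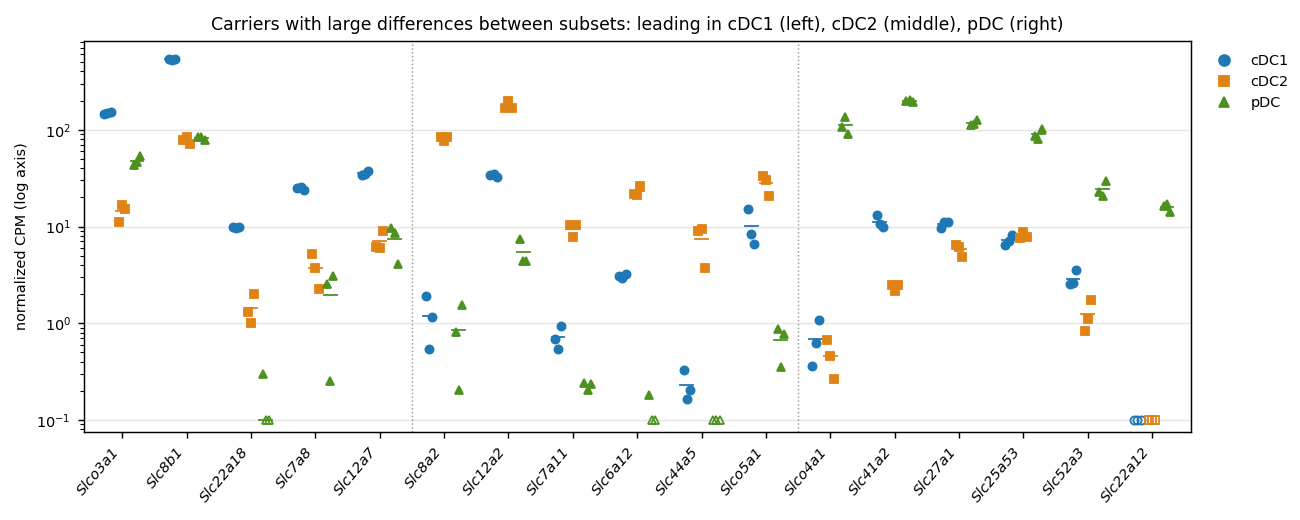
TMM-normalized CPM per library (log axis) for carriers with large differences between subsets, which lead in cDC1 (left), cDC2 (middle) and pDC (right), in cDC1 (circles), cDC2 (squares) and pDC (triangles), with a bar at the mean of 3 libraries and open symbols at the lower edge for libraries under 0.1 CPM. Slc8a2 lies near 80 CPM in cDC2 and near 1 elsewhere, and Slco4a1 and Slc22a12 are counted almost only in pDC.

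Mitochondrial carriers, the largest class, moved in both directions. Of 36 members of the Slc25 family, 9 were higher and 13 lower in pDC than in cDC1 (median log2 fold change -0.04). Against cDC2, 8 were higher and 11 lower in pDC (median -0.04), and cDC2 exceeded cDC1 in 3 and fell below it in 5 (median -0.25). With the replicate block, 14 members were lower in cDC2 than in cDC1 in place of 5, and 6 were higher in place of 3. Without cDC1 replicate 1, 5 members in place of 9 exceeded their cDC1 level in pDC, and without pDC replicate 1 or 2, 7 in place of 11 were lower in pDC than in cDC2. At a log2 fold change of 1 or more in size, 5 were higher and 3 lower in pDC relative to cDC2, and library size scaling gave 12 higher and 12 lower relative to cDC1 and 5 higher and 4 lower in cDC2 relative to cDC1, so the class kept no 1 direction. The carriers that serve oxidative phosphorylation and the exchange of reducing equivalents were called lower in pDC more often than higher: of 10 such members, 7 were lower and 2 higher in pDC relative to cDC1, and 5 were lower and 2 higher relative to cDC2. The replicate block gave 8 of the 10 lower in cDC2 than in cDC1, in place of 2.

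Slc25a5, an ADP/ATP translocase and the highest member per kilobase, stood at 517, 518 and 717 CPM in cDC1, 441, 415 and 552 in cDC2 and 318, 272 and 371 in pDC. The cDC1 libraries lay above all pDC libraries (log2 fold change -0.87 ± 0.17, edgeR adjusted p = 0.00228), and the lower level in pDC than in cDC2 (edgeR adjusted p = 0.0252) did not pass the test without cDC2 replicate 3, or pDC replicate 1 or 2 (edgeR adjusted p from 0.0649 to 0.0904). Pseudogene copies hold 19.8% of its 75-base windows, so part of its reads may have been split or lost in counting. Slc25a4, the other translocase, differed little, at 228, 213 and 238 CPM in cDC1, 188, 183 and 203 in cDC2 and 183, 177 and 197 in pDC, and its call of pDC against cDC1 (log2 fold change -0.28, edgeR adjusted p = 0.0281) did not pass the test without cDC1 replicate 1 or 3, or pDC replicate 1 or 2, or with library size scaling or no count filter (edgeR adjusted p from 0.0667 to 0.0816). Slc25a3, the phosphate carrier, was lower in pDC than in cDC1 at 293, 263 and 328 against 479, 468 and 551 CPM (log2 fold change -0.76 ± 0.11, edgeR adjusted p = 3.27e-04). Its intermediate level in cDC2 was called against both, calls that were less steady: pDC against cDC2 did not pass the test without cDC2 replicate 1 or 3, or pDC replicate 1 or 2 (edgeR adjusted p from 0.0552 to 0.0677), and cDC2 against cDC1 did not pass the test without cDC1 replicate 1 or 3, or cDC2 replicate 1 or 2, or with library size scaling (edgeR adjusted p from 0.0623 to 0.0936).

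The aspartate-glutamate carriers, which pass reducing equivalents into mitochondria, differed in opposite directions. Slc25a12 was highest in pDC, at 65.6, 75.8 and 74.3 CPM in cDC1, 53.5, 52.9 and 65.03 in cDC2 and 193, 186 and 179.7 in pDC, 2.59-fold above cDC1 (log2 fold change 1.37 ± 0.11, edgeR adjusted p = 6.75e-06) and 3.26-fold above cDC2 (log2 fold change 1.70 ± 0.12, edgeR adjusted p = 1.92e-06). Slc25a13, its paralogue, was lowest there, at 22.1, 26.9 and 32.2 CPM in cDC1, 14.6, 13.5 and 20.1 in cDC2 and 4.14, 2.89 and 8.42 in pDC, 5.29-fold below cDC1 (log2 fold change -2.40 ± 0.36, edgeR adjusted p = 3.94e-04) and 3.14-fold below cDC2 (log2 fold change -1.65 ± 0.36, edgeR adjusted p = 0.00384). Per kilobase of exon, Slc25a12 exceeded Slc25a13 in every subset. Slc25a10, the dicarboxylate carrier, fell in the same way as Slc25a13, at 60.2, 54.9 and 72.02 CPM in cDC1, 43.4, 36.9 and 45.4 in cDC2 and 11.6, 7.50 and 16.1 in pDC, 5.32-fold below cDC1 in pDC (log2 fold change -2.41 ± 0.25, edgeR adjusted p = 2.93e-05). Slc25a1, the citrate carrier that feeds fatty acid synthesis, was higher in pDC (70.8, 78.1 and 99.9 CPM) than in cDC1 (51.8, 54.2 and 62.5, log2 fold change 0.56 ± 0.14, edgeR adjusted p = 0.00887) and cDC2 (46.5, 43.98 and 48.98, log2 fold change 0.83 ± 0.14, edgeR adjusted p = 9.93e-04). Slc25a20, which imports acylcarnitines for fatty acid oxidation, set cDC1 apart, at 93.1, 91.2 and 91.98 CPM in cDC1, 47.5, 47.2 and 38.5 in cDC2 and 40.2, 38.5 and 44.9 in pDC (log2 fold change -1.05 ± 0.12, edgeR adjusted p = 1.41e-04 for cDC2 and log2 fold change -1.16 ± 0.12, edgeR adjusted p = 2.40e-05 for pDC, each against cDC1). Slc25a11, the oxoglutarate carrier, was lower in pDC (137 ± 16.9 CPM, SD) than in cDC2 (226 ± 28.4, edgeR adjusted p = 0.00451), and its call against cDC1 did not pass the test without cDC1 replicate 3, or pDC replicate 1 or 2 (edgeR adjusted p from 0.0583 to 0.0858). Slc25a22, a glutamate carrier, passed no test (19.7, 19.2 and 26.2 CPM in cDC1, cDC2 and pDC), though with the replicate block pDC exceeded cDC2 (edgeR adjusted p = 0.0431, 0.0560 without it).

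**Figure D5:**
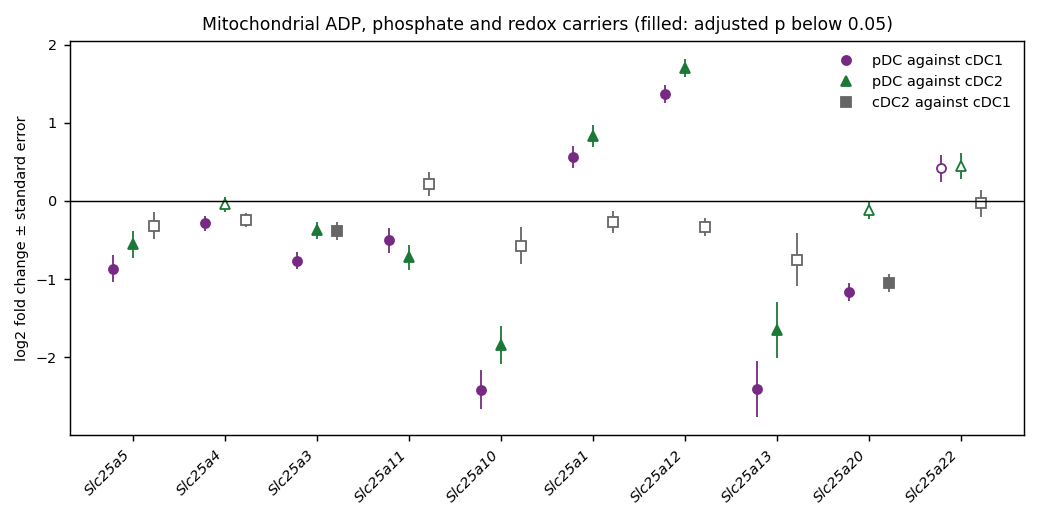
Log2 fold change ± standard error from edgeR (vertical axis) of 10 mitochondrial carriers in pDC relative to cDC1 (circles), in pDC relative to cDC2 (triangles) and in cDC2 relative to cDC1 (squares), filled where the adjusted p is below 0.05. Slc25a12 and Slc25a1 lie above 0 in both pDC comparisons, and Slc25a10 and Slc25a13 lie lowest.

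Outside these lists, Slc25a53, an orphan mitochondrial carrier, had the largest rise of the family in pDC, at 6.41, 7.09 and 8.19 CPM in cDC1, 7.58, 8.71 and 7.86 in cDC2 and 87.2, 79.5 and 102 in pDC. It was 12.4-fold above cDC1 (log2 fold change 3.63 ± 0.15, edgeR adjusted p = 1.05e-07) and 11.1-fold above cDC2 (log2 fold change 3.47 ± 0.15, edgeR adjusted p = 1.57e-07), and cDC1 and cDC2 overlapped. Of members chosen after their values were seen, Slc25a26, which imports the methyl donor S-adenosylmethionine, was highest in cDC1, at 13.6, 13.96 and 15.7 CPM against 4.78, 5.07 and 5.53 in cDC2 (log2 fold change -1.49 ± 0.21, edgeR adjusted p = 6.71e-04) and 3.15, 3.19 and 2.12 in pDC (log2 fold change -2.34 ± 0.22, edgeR adjusted p = 1.57e-05). Slc25a38, the glycine carrier of haem synthesis, had the same leader, at 44.3, 45.98 and 43.2 CPM in cDC1 against 26.5, 26.98 and 22.6 in cDC2 (log2 fold change -0.81 ± 0.12, edgeR adjusted p = 9.64e-04) and 18, 20.97 and 20.9 in pDC (log2 fold change -1.16 ± 0.12, edgeR adjusted p = 3.62e-05). Slc25a24, a calcium-regulated carrier of ATP and phosphate, was lowest in cDC2 (16.98, 17.9 and 26.8 CPM against 53.1, 57.9 and 73.4 in cDC1, log2 fold change -1.58 ± 0.20, edgeR adjusted p = 3.71e-04), and Slc25a16 and Slc25a30 were higher in cDC2 than in cDC1 (31.95 against 20.5 and 18.8 against 11.9 CPM, edgeR adjusted p = 0.0184 and 0.0119). The Slc25a16 call did not pass the test without cDC1 replicate 1 or 2, or cDC2 replicate 3 (edgeR adjusted p from 0.0571 to 0.0759). Slc25a16 (0.00887) was higher in pDC relative to cDC1, Slc25a24 (0.00289) was lower in pDC relative to cDC1, Slc25a11 (0.0338) was higher in cDC2 relative to cDC1, and Slc25a1 (0.0491), Slc25a10 (0.0120), Slc25a12 (0.0233), Slc25a13 (0.0207), Slc25a4 (0.00922) and Slc25a5 (0.00523) were lower in cDC2 relative to cDC1, with the replicate block but not without it (blocked edgeR adjusted p in brackets).

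Slc44a1 and Slc44a2, choline carriers, rose in pDC. Of 11 carriers of vitamins, haem and choline, 5 were higher and 3 lower in pDC than in cDC1 (median log2 fold change 0.41). Against cDC2, 7 were higher and 2 lower in pDC (median 0.76), and cDC2 exceeded cDC1 in 4 and fell below it in 3 (median 0.02). Slc44a2, a choline transporter-like protein of the plasma membrane and mitochondria, stood at 171, 163 and 196 CPM in cDC1, 469, 468 and 489.98 in cDC2 and 1247, 1242 and 1371 in pDC. The 3 subsets were far apart, with pDC 7.28-fold above cDC1 (log2 fold change 2.86 ± 0.10, edgeR adjusted p = 4.94e-08) and 2.71-fold above cDC2 (log2 fold change 1.44 ± 0.10, edgeR adjusted p = 1.79e-06). Slc44a1, the main choline carrier of the family, which was chosen after its values were seen, had the same order, at 86.4, 70.9 and 77.2 CPM in cDC1, 168, 161 and 196 in cDC2 and 350.2, 341 and 376 in pDC (log2 fold change 2.19 ± 0.12, edgeR adjusted p = 4.50e-07, pDC against cDC1). Slc44a5 differed from both: it was counted in cDC2 at 9.08, 9.45 and 3.72 CPM, against 0.328, 0.167 and 0.203 in cDC1 (log2 fold change 4.94 ± 0.61, edgeR adjusted p = 2.89e-04), and 2 reads were counted in pDC, against which the level in cDC2 was 277 times (95% exact conditional interval 76.3 to 2290.2, counting error only). Slc52a3, a riboflavin carrier, was highest in pDC, at 2.55, 2.58 and 3.52 CPM in cDC1, 0.828, 1.12 and 1.75 in cDC2 and 22.6, 20.7 and 29.4 in pDC, 8.46-fold above cDC1 (log2 fold change 3.08 ± 0.29, edgeR adjusted p = 1.60e-05). The ascorbate carrier Slc23a2, chosen after its values were seen, rose too, to 72.97, 78.8 and 71.2 CPM in pDC from 23.3, 24.3 and 22 in cDC1 (log2 fold change 1.68 ± 0.11, edgeR adjusted p = 1.35e-06) and 26.1, 29.04 and 25.1 in cDC2 (log2 fold change 1.47 ± 0.11, edgeR adjusted p = 3.14e-06). Chosen likewise, the thiamine carrier Slc19a2 was lower in pDC than in cDC1 (6.17, 3.04 and 2.12 CPM in cDC1, cDC2 and pDC, log2 fold change -1.55 ± 0.33, edgeR adjusted p = 0.00327), while its call of cDC2 against cDC1 did not pass the test without cDC1 replicate 1, 2 or 3, cDC2 replicate 1, 2 or 3, or pDC replicate 1, or with library size scaling or no count filter (edgeR adjusted p from 0.0634 to 0.117). Slc52a2, a relative of Slc52a3 also chosen after its values were seen, was lowest in cDC2 (27.7, 18.2 and 30.7 CPM in cDC1, cDC2 and pDC, log2 fold change -0.61 ± 0.16, edgeR adjusted p = 0.0180, cDC2 against cDC1), a call that did not pass the test without cDC2 replicate 1 or 2 (edgeR adjusted p from 0.0515 to 0.0540). Without replicate 3 of every subset, 8 members of the class in place of 5 were higher in pDC than in cDC1.

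The carriers of nucleotide sugars, which supply glycosylation in the Golgi, were called in few cases. Of 13 members listed for nucleotide sugars and ATP of the ER and Golgi, 1 was higher and 1 lower in pDC than in cDC1 (median log2 fold change 0.07). Against cDC2, 2 were higher and 1 lower in pDC (median 0.28), and cDC2 exceeded cDC1 in 0 and fell below it in 1 (median -0.13). Over the 3 subsets, 3 of the 13 differed, and 7 with the replicate block or without replicate 3 of every subset. In the latter case 6 of them were higher in pDC relative to cDC2. With the replicate block these counts were 2 lower in pDC relative to cDC1, 4 higher and 3 lower in pDC relative to cDC2, and 1 higher and 3 lower in cDC2 relative to cDC1. The whole class of 26, which adds nucleoside carriers and orphans, was called more often. Of its members, 6 were higher and 4 lower in pDC than in cDC1 (median log2 fold change 0.08). Against cDC2, 7 were higher and 1 lower in pDC (median 0.29), and cDC2 exceeded cDC1 in 2 and fell below it in 6 (median -0.13). Without replicate 3 of every subset, 12 of the 26 in place of 7 exceeded their cDC2 level in pDC, and 7 in place of 4 fell below their cDC1 level there, and the replicate block raised the number lower in pDC than in cDC2 from 1 to 3. Slc35a1, the CMP-sialic acid carrier, was 24.1, 26.3 and 36.2 CPM in cDC1, cDC2 and pDC, and its call of pDC over cDC1 did not pass the test without cDC1 replicate 1 or 2, or pDC replicate 1 (edgeR adjusted p from 0.0614 to 0.0863). Slc35a2, the UDP-galactose carrier, was 22.2, 20.3 and 26.9 CPM, and its call of pDC over cDC2 did not pass the test without cDC1 replicate 1, cDC2 replicate 2 or 3, or pDC replicate 1, 2 or 3, or with no count filter (edgeR adjusted p from 0.0517 to 0.105). Slc35b1, the ATP carrier of the ER, was lowest in cDC2, at 56.5, 57.7 and 81.5 CPM in cDC1, 38.9, 37.2 and 36.8 in cDC2 and 66.6, 63.4 and 78.1 in pDC (log2 fold change -0.79 ± 0.16, edgeR adjusted p = 0.00451 against cDC1 and log2 fold change 0.88 ± 0.16, edgeR adjusted p = 0.00117 for pDC over cDC2). Slc35d2 fell in pDC to 8.12 CPM from 18.3 in cDC1 (log2 fold change -1.17 ± 0.19, edgeR adjusted p = 6.27e-04), and its call against cDC2 did not pass the test without cDC2 replicate 3, or pDC replicate 1 or 2, or with only the 6 libraries compared (edgeR adjusted p from 0.0566 to 0.0947). The GDP-fucose carrier Slc35c1 stood at 47.4, 46.9 and 55.8 CPM in cDC1, 48.5, 46.05 and 52.7 in cDC2 and 47.6, 40.3 and 49.6 in pDC, and neither it nor Slc35a3, Slc35a4, Slc35a5, Slc35b2, Slc35b3, Slc35b4, Slc35c2 or Slc35d1 passed a test. Of members named after their values were seen, Slc43a3, a nucleobase carrier, was lower in cDC1 (10.8, 20.1 and 17.2 CPM in cDC1, cDC2 and pDC, edgeR adjusted p = 0.0114 for cDC2 and 0.0233 for pDC), and the orphans Slc35f5 (14.1, 8.50 and 9.58 CPM in cDC1, cDC2 and pDC) and Slc35g1 (8.97, 2.84 and 2.38 CPM in cDC1, cDC2 and pDC) were higher there than in pDC (edgeR adjusted p = 0.0301 and 0.0153). In the comparison of pDC with cDC1, the Slc43a3 call did not pass the test without cDC1 replicate 1 or 2, or pDC replicate 1 or 3 (edgeR adjusted p from 0.0580 to 0.0718), the Slc35f5 call did not pass the test without cDC1 replicate 1 or 3, or pDC replicate 1 or 2, or with library size scaling or no count filter (edgeR adjusted p from 0.0524 to 0.0993) and the Slc35g1 call did not pass the test without pDC replicate 1 (edgeR adjusted p = 0.0557). Slc35a3 (0.00301) was lower in pDC relative to cDC1, Slc35a1 (0.0406) and Slc35c2 (5.35e-04) were higher in pDC relative to cDC2, Slc35a3 (0.00202) and Slc35b4 (0.0188) were lower in pDC relative to cDC2, Slc35b4 (0.0321) was higher in cDC2 relative to cDC1, and Slc35c2 (0.00469) and Slc35d2 (0.00998) were lower in cDC2 relative to cDC1, with the replicate block but not without it (blocked edgeR adjusted p in brackets).

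Carriers known from neurons and osmotic balance were few. Of 5 members of this class, 2 were higher and 2 lower in pDC than in cDC1 (median log2 fold change -0.69). Against cDC2, 1 was higher and 2 lower in pDC (median -0.43), and cDC2 exceeded cDC1 in 3 and fell below it in 0 (median 1.04). Slc6a12, the betaine and GABA carrier, stood at 3.09, 2.92 and 3.25 CPM in cDC1, 21.8, 20.99 and 26.3 in cDC2 and 0.182, 0 and 0 in pDC, 7.45-fold above cDC1 in cDC2 (log2 fold change 2.90 ± 0.37, edgeR adjusted p = 3.61e-04) and 263-fold lower in pDC than in cDC2 (log2 fold change -8.04 ± 0.55, edgeR adjusted p = 2.00e-06). With no read of Slc6a12 in pDC replicates 2 and 3, the size of the pDC difference has little precision. Slc6a13, its neighbour in the GABA carrier family, had the same order at 9.98, 9.92 and 5.69 CPM in cDC1, 25.4, 25.9 and 14.3 in cDC2 and 2.27, 2.48 and 1.47 in pDC (log2 fold change 1.35 ± 0.31, edgeR adjusted p = 0.0102 for cDC2 and log2 fold change -2.03 ± 0.33, edgeR adjusted p = 6.65e-04 for pDC, against cDC1). Slc18b1, a vesicular polyamine carrier, was counted almost only in pDC, at 0.182, 0.208 and 0.474 CPM in cDC1, 0.0956, 0.175 and 0 in cDC2 and 5.75, 5.37 and 6.30 in pDC (log2 fold change 4.39 ± 0.63, edgeR adjusted p = 2.93e-04, against cDC1). The nucleoside carrier of the cell surface Slc29a1 and the acetyl-CoA carrier of the ER Slc33a1, both chosen after their values were seen, set cDC1 apart in opposite directions. Slc29a1 was lower in cDC1 (36.5, 33.6 and 60.8 CPM) than in cDC2 (95.7, 85.8 and 107, log2 fold change 1.14 ± 0.22, edgeR adjusted p = 0.00360) and pDC (104, 83.3 and 98.98, log2 fold change 1.13 ± 0.22, edgeR adjusted p = 0.00173). Slc33a1 was higher in cDC1 (68.3, 68.6 and 84.1 CPM) than in cDC2 (24.9, 28.03 and 31.4, log2 fold change -1.39 ± 0.13, edgeR adjusted p = 5.41e-05) and pDC (45.02, 46.2 and 41.98, log2 fold change -0.73 ± 0.13, edgeR adjusted p = 0.00109), with 32.02% of its exons covered by the antisense gene Gm26850, listed with 17 counts in all.

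Genes that carry an Slc name without being carriers numbered 5, of which 0 were higher and 1 lower in pDC than in cDC1 (median log2 fold change 0.14). Against cDC2, 1 was higher and 2 lower in pDC (median -0.38), and cDC2 exceeded cDC1 in 1 and fell below it in 1 (median -0.14). Slc9a3r1, a scaffold that anchors transporters to the cytoskeleton, was highest in cDC2, at 111, 108 and 122 CPM in cDC1, 188, 171 and 167 in cDC2 and 126, 134 and 130.3 in pDC (log2 fold change 0.62 ± 0.09, edgeR adjusted p = 0.00103 for cDC2 against cDC1). Slc9a3r2, a related scaffold, led in cDC1 instead, at 9.50, 9.34 and 7.65 CPM in cDC1, 2.13, 1.96 and 1.59 in cDC2 and 0.756, 0.608 and 0 in pDC (log2 fold change -4.17 ± 0.67, edgeR adjusted p = 6.04e-04 for pDC against cDC1). Its call of cDC2 against cDC1 did not pass the test without cDC1 replicate 1 or 2, or cDC2 replicate 1, 2 or 3 (edgeR adjusted p from 0.0595 to 0.0830), and that of pDC against cDC2 did not pass the test without cDC1 replicate 1 or 2, cDC2 replicate 1 or 2, or pDC replicate 2, or with only the 6 libraries compared (edgeR adjusted p from 0.0533 to 0.138). Slc4a1ap, which shares only its name with a carrier, passed no test (27.04, 33.9 and 25.98 CPM in cDC1, cDC2 and pDC). Slc7a6os, named after its values were seen, was higher in pDC than in cDC2 (18.04, 16.3 and 24.04 CPM in cDC1, cDC2 and pDC, edgeR adjusted p = 0.0360), a call that did not pass the test without cDC1 replicate 1, cDC2 replicate 2 or 3, or pDC replicate 1 or 2 (edgeR adjusted p from 0.0567 to 0.109). Over all members, 11 share more than 10% of their 75-base windows with another gene and 10 have antisense exon overlap above 10%, and the values of such genes depend on how the counting treated shared reads. Slc4a1ap (0.00866) was lower in pDC relative to cDC2, and Slc4a1ap (0.0275) was higher in cDC2 relative to cDC1, with the replicate block but not without it (blocked edgeR adjusted p in brackets).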

How the data were processed

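RNA was sequenced as 75-base single reads from 9 libraries, 3 per subset, and the authors deposited raw read counts per gene for all of them in 1 table. The paper names a stranded mRNA library kit. Per the labels, reads were aligned to mm10 with STAR and counted with featureCounts. Versions, the annotation release and the strand setting of the counting are not given in the sources used here. The labels give same-numbered libraries of the 3 subsets a shared date code, and such libraries deviated together from their subset means (correlation 0.266 to 0.543 for same numbers, -0.472 to 0.170 for different ones). Because deviations from a subset mean cancel within that subset, the values for different numbers are tied to those for same numbers and are no separate contrast.

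Genes were tested with edgeR 4.0.16 (R 4.3.3; TMM factors, a count filter of 10, the quasi-likelihood F test over all 9 libraries, subset as the only term, Benjamini-Hochberg adjustment over 13819 genes). Levels are TMM-scaled CPM computed from the deposited counts; lengths are exon unions of GENCODE M21 (GRCm38). Ratios with 1 to 3 counts in a subset carry an exact conditional interval, and the floor is 3 counts per library; both cover counting error only. Each library is a pool of mice, and p-values of the main fit set subset differences against the spread between libraries of a subset. That spread includes what same-numbered libraries share, which the replicate block takes out. Alternatives were the replicate block, DESeq2 1.42.0, limma-voom (limma 3.58.1), other scalings, filters, thresholds and member limits, the compared subsets alone, and single libraries, or replicate 3 of every subset, left out; those for classes and lists were added after the data were seen.

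Substrate classes and pathway lists were written by hand, and the members and lists were chosen with earlier results of these data known. Slc4a1ap was moved to the accessory genes after the table's names were seen. Named genes (141) are members on the lists, the 10 largest called rises and falls per comparison that averaged 100 counts or more in the higher subset and had 1 direction in all same-numbered pairs, and the 2 highest per kilobase of each class (114 in all); the other 27 were chosen after their values were seen. A few genes are not reported here.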

Additional observations from a re-analysis of the deposited data

How the results depend on the processing

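Requiring a log2 fold change of 1 or more in size lowered the counts of members to 37 higher in pDC than in cDC1, 34 higher and 28 lower in pDC than in cDC2, 13 lowest in cDC1, 8 lowest in cDC2, 23 highest in pDC and 21 lowest in pDC. The replicate block gave 55 members lower in cDC2 than in cDC1 and 22 lowest in cDC2. Without replicate 3 of every subset these counts were 58 and 22, and 41 members were highest in cDC1; the cause was not tested. Library-size scaling, which shifted the median of all genes by 0.11 (log2) for cDC2 against cDC1, and the other scalings, tools, filters and the limit of 1000 counts kept each of these counts over all members within 1.5 times its value.

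With 1 library left out, members numbered 47 to 62 higher and 49 to 59 lower in pDC than in cDC1, 56 to 64 higher and 35 to 48 lower in pDC than in cDC2, and 33 to 40 higher and 24 to 45 lower in cDC2 than in cDC1. The number lowest in cDC2 was 10 to 17, highest in cDC2 16 to 18, lowest in cDC1 16 to 23, highest in pDC 36 to 46 and lowest in pDC 24 to 36, and 122 to 141 differed in the test of any difference. The number highest in cDC1 ran from 15 without cDC2 replicate 1 to 34 without pDC replicate 3, and the number lower in cDC2 than in cDC1 fell to 24 without cDC2 replicate 1.

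Of 423 comparisons of 141 genes chosen to be named, 252 were called, 200 of them under every alternative run, and none changed sign under a call. The block added 40 calls and lost none. In all, 233 of 7986 alternative values lost a call and 182 gained one. A subset whose libraries hold only a few reads of a carrier gives its fold change little precision at this depth.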
